A study of Mus musculus with 5 samples.

Results

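The cells described here are synovial sarcoma (SyS) cells that carried RNA of *Insm1*, taken from 5 mouse tumours profiled by single-cell RNA-seq. Members were chosen by their UMI counts (unique molecular identifiers, each of which marks 1 captured RNA molecule). A cell was taken as a SyS gate cell when it had at least 750 detected genes and at most 25% mitochondrial UMIs, held RNA of at least 3 of the 8 genes *Adgrb3*, *Sox11*, *Tle1*, *Hmga2*, *Reln*, *Nxph1*, *Epha5* and *Gpc3*, and held at most 1 UMI in all of *Ptprc*, *Cdh5*, *Csf1r* and *Rgs5*, which mark blood, vessel-lining, macrophage and mural cells. Gate cells with 2 or more *Insm1* UMIs were the members. They numbered 969 of 30700 gate cells, of 42516 cells past the quality filter and of 51670 cells in all.

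All 5 tumours were *hSS2* tumours. Human *SS18::SSX2*, the fusion oncogene of this cancer, was switched on in them by TATCre protein injected into the hindlimb of mice 8 days old, and every tumour carried it, so that no fusion-free group exists. The labels gave BP (biphasic, with an epithelial component) to 2 tumours, and MP (monophasic), MP+BP and PD+MP (poorly differentiated with monophasic) to 1 each. Tumours were harvested at morbidity, and a portion of each was dissociated and cleared of red cells, with no sort of SyS cells stated. Both BP labels share their leading number, and no source used here says if the same animal bore both. The mice were a mixed CB57Bl/6-svJ strain, as the study spells it, and were 2 to 6 months old. The matrices held 8931 to 11565 cells and 89996321 to 118649103 UMIs per tumour, and 231 of 51437 barcode sequences occurred in more than 1 library.

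*Insm1* encodes a zinc-finger repressor that is switched on briefly in neuronal and endocrine precursors as they leave the dividing progenitor state, and it works through the histone demethylase LSD1 (*Kdm1a*), CoREST proteins and histone deacetylases. In the developing nervous system, proneural factors switch on the Notch ligand *Dll1* and the differentiation factor *Hes6*. The ligand then activates Notch receptors on neighbouring cells, where the effectors *Hes1* and *Hes5* hold proneural genes down. *Insm1* lies at chr2:146221921-146225020 on the forward strand of mouse genome build GRCm38, and no other gene of the count tables overlapped it on either strand.

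The start regions of *Dll1*, *Hes6* and *Hes5* are shown because these genes stand on the proneural, differentiating and Notch-receiving sides of that circuit and are described below. Each is 300 bases, 250 before to 50 after a transcription start, from RefSeq on GRCm38.p6. Capitals mark CAGCTG, an E-box of the kind that helix-loop-helix proteins bind and that reads the same on both strands, and TGGGAA or its reverse complement TTCCCA, the core that the Notch cofactor *Rbpj* binds.
Dll1, chr17:15376883-15377182, reverse strand: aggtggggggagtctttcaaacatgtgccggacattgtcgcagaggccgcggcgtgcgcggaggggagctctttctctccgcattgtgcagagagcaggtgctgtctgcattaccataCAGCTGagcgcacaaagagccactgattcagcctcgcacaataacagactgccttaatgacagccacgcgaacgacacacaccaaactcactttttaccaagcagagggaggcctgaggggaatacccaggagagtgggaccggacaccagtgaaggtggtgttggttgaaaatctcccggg
Hes6, chr1:91413989-91414288, reverse strand: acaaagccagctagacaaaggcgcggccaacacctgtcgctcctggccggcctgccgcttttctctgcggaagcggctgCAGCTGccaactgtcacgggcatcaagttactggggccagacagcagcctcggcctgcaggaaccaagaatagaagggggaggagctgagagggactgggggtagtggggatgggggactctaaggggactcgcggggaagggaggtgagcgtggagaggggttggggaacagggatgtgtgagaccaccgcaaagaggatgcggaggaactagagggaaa
Hes6, chr1:91413173-91413472, reverse strand: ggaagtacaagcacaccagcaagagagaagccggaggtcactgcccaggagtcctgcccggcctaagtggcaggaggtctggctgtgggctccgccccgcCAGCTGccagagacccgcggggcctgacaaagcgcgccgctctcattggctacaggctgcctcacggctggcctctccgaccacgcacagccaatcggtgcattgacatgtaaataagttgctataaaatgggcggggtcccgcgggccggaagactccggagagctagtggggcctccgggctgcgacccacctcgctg
Hes5, chr4:154960673-154960972, forward strand: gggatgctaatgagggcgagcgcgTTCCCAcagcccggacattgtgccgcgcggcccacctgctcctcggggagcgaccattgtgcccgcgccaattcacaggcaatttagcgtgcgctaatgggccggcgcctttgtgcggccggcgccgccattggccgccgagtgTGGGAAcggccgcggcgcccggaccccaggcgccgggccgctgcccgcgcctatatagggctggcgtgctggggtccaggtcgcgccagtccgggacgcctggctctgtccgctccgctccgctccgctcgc
CAGCTG occurred once in the *Dll1* window and once in each *Hes6* window, and the *Hes5* window held TGGGAA once on each strand. Over all 32851 windows, 16.3% held CAGCTG and 25.6% held TGGGAA, so neither set of letters is rare. Of the genes found higher in members, 37 had a window and 9 of them held CAGCTG, against 9 of the 20 lower genes with a window and 18.3% of all 27025 gene symbols.

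Members made up between 1.49% and 4.95% of gate cells. The share was 3.71% (156 of 4200 cells) in BP replicate 1, 1.49% (115 of 7695) in BP replicate 2, 4.95% (258 of 5215) in MP, 3.60% (248 of 6896) in MP+BP and 2.87% (192 of 6694) in PD+MP. The lowest and the highest share had Clopper-Pearson 95% intervals of 1.24 to 1.79% and 4.37 to 5.57%, which do not meet and which cover counting error only. BP replicate 2 was thus the tumour with the fewest members, and in these deposited counts its interval did not meet that of BP replicate 1 (3.16 to 4.33%). Most gate cells with any *Insm1* RNA held 1 UMI, with 386 to 628 such cells per tumour, and the highest count in any cell was 20, in MP. A cut on UMIs favours deeply sequenced cells. The median member held 19208 to 28928.5 UMIs, against 7711 to 11409.5 for the median gate cell. Had *Insm1* UMIs been spread over gate cells by depth alone, many cells would still have reached 2 UMIs. That expected number was 94.9, 59.0, 174, 167 and 117 cells in BP replicates 1 and 2, MP, MP+BP and PD+MP, against 156, 115, 258, 248 and 192 found. At 3 or more UMIs it was 14.5, 5.04, 33.2, 28.9 and 16.1 cells, against 47, 44, 89, 82 and 56 found. After each cell was thinned to 5000 UMIs, members made up 0.442% (BP replicate 2) to 1.07% (MP+BP) of 24355 cells, and 6345 shallower gate cells were left out. The order of the tumours then changed, since MP+BP stood highest instead of MP, while BP replicate 2 stayed lowest. The intervals of BP replicates 1 and 2 overlapped after thinning (0.317 to 0.820% and 0.296 to 0.635%). No test between labels was made, with 1 tumour for 3 of the 4 labels.

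**Figure D1:**
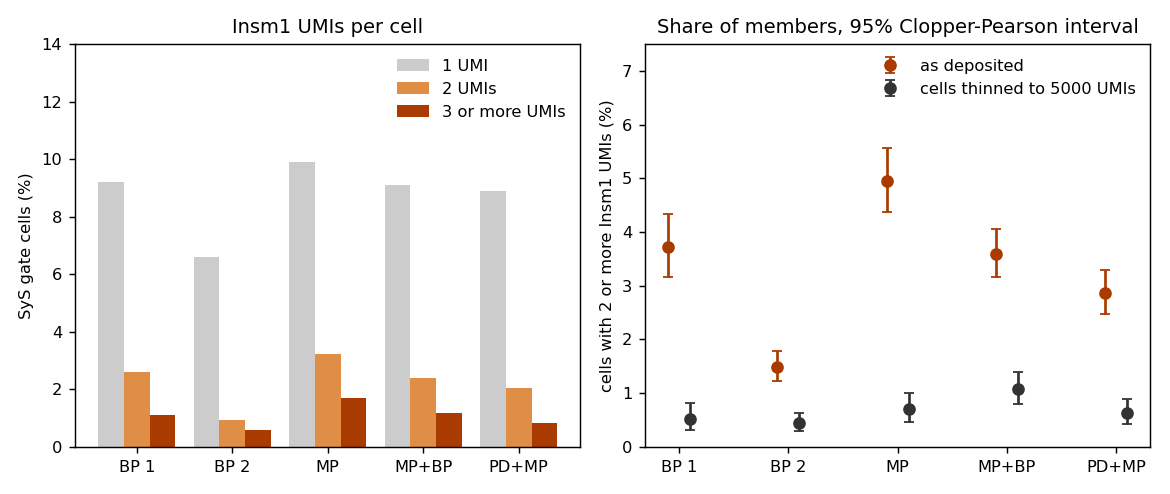
Left, the percent of SyS gate cells of each tumour with 1, 2 or 3 or more *Insm1* UMIs. Right, the percent with 2 or more as deposited and after thinning to 5000 UMIs, with Clopper-Pearson 95% intervals. Cells at 1 UMI outnumber members in every tumour, and MP leads before thinning (4.95%) and MP+BP after it (1.07%).

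Other cell types of the same tumours were counted beside these shares. Their gates admitted only cells in which few of the SyS gate genes were detected. Cells that held much tumour RNA were thus left out in advance. The low values below are in part built into these gates and are not a full background. In a macrophage gate of 321 to 691 cells per tumour, 0 to 3 cells held an *Insm1* UMI, the highest share being 0.798% in MP+BP. In an endothelial gate of 46 to 456 cells no cell held one, and no cell of either gate held 2. Their median depth was lower, at 4693 to 6932 UMIs for macrophage gate cells. The files also list an EGFP entry, whose origin the labels do not explain. EGFP RNA was found in 23.8 to 39.2% of gate cells and in at most 1.25% of macrophage or endothelial gate cells. In members and partners its level did not pass the test (log2 change 0.05, SE 0.07, edgeR adjusted p = 0.92).

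Each member was set beside an *Insm1*-negative gate cell of its own tumour with a total UMI count within 10%. Partners were found for 954 members, namely 156, 114, 257, 240 and 187 in BP replicates 1 and 2, MP, MP+BP and PD+MP. UMIs were summed per tumour and arm and tested with edgeR over 15316 genes, the 13 genes of the rule left out. Levels are given in CPM (UMIs of a gene per 1000000 UMIs of the sum), and changes as log2 of members over partners. In members 48 genes were higher (0.313% of those tested) and 25 were lower (0.163%) at an adjusted p under 0.05. Of these 73 genes, 60 moved the same way in every tumour. The calls depended on single tumours, since 22 of the 73 were called again without BP replicate 1 (18 higher and 8 lower genes in all) and 21 without MP (17 and 8), against 33 to 44 without each of the others. The filter on low counts let in genes whose partner sums held few UMIs. With at least 10 counts asked of every sum, 51 of the 73 genes were tested, and 50 were called again by edgeR. *St18*, *Dcx* and *Dcc*, described below, were not tested there. The median change over all genes was -0.00, and 4.73% of all genes were higher at an unadjusted p under 0.05. As a description of the rule, *Insm1* itself stood at 89.0 ± 16.0 CPM (SD, n = 5) in members, and the label marker *Sox11*, which is also a gate gene, stood at 170 ± 42.5 CPM in members and 132 ± 32.1 CPM in partners. In bulk sums of this kind, fewer cells that carry an RNA and less RNA per cell cannot be told apart, so the number of carrying cells is given below where it matters.

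Among transcription factors of neuronal differentiation, *Hes6*, *Sox4* and *Prox1* rose in members in 5 of 5 tumours. Of 32 such genes 19 were tested, and 5 were higher (among them *Hes6*, *St18*, *Sox4* and *Prox1*) and none lower by edgeR at an adjusted p under 0.05, beside 12 higher and 0 lower before adjustment (p under 0.05). The list's median change was 0.38 against -0.00 over all genes, and its summed level was higher in members in 5 of 5 tumours, at 845 ± 82.2 CPM against 721 ± 48.0 CPM (SD, n = 5).

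*Hes6*, a Hes-family factor that promotes differentiation, stood at 20.3, 37.2, 33.0, 20.1 and 44.7 CPM in members of BP replicates 1 and 2, MP, MP+BP and PD+MP. The partners held 10.9, 17.6, 20.2, 8.15 and 41.6 CPM. Members were higher in 5 of 5 tumours, with near-equal levels in PD+MP. The change was 0.72 (SE 0.13, adjusted p = 0.033), and it missed the threshold when BP replicate 1, BP replicate 2, MP or MP+BP was left out (adjusted p from 0.051 to 0.12), and narrowly with scored doublets removed (0.69, adjusted p = 0.0502). *Sox4*, a SoxC factor of immature neurons, changed by 0.28 and *Prox1*, a homeobox factor of neuronal and lymphatic fate, by 0.24. Both were widespread, being found in 710 and 835 of 954 members, and both were higher in 5 of 5 tumours. Neither passed with scored doublets removed (0.28 for each). Over 22 alternatives *Sox4* kept its call in 10, with changes from 0.058 to 0.39, and *Prox1* in 9, with changes from 0.071 to 0.34. The proneural factors *Neurog2* (1.25, adjusted p = 0.075), *Neurog1* (1.88, 0.12) and *Neurod1* (1.20, 0.18) did not pass. *Neurod1* is overlapped by *Cerkl* on the same strand, and how reads were assigned between them was not examined, so its value is uncertain.

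*St18*, a zinc-finger factor of the Myt family, was of another kind, because few cells carried it. It was found in 30 members and 9 partners, and the 5 highest members held 64.7% of its UMIs. Its levels in members were 8.37, 27.1, 5.51, 1.86 and 0.219 CPM, the last from 1 UMI in PD+MP. Partners held 0.178, 1.30, 1.04, 1.36 and 0 CPM, and a count of 0 in PD+MP allows up to 0.658 CPM. The change was 3.00 (SE 0.44, edgeR adjusted p = 0.0075; DESeq2 adjusted p = 0.15). It missed the threshold when scored doublets were removed (2.52, edgeR adjusted p = 0.073). The partner sums held only 1, 4, 9, 8 and 0 UMIs of *St18*, so it entered the test on its member sums.

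**Figure D2:**
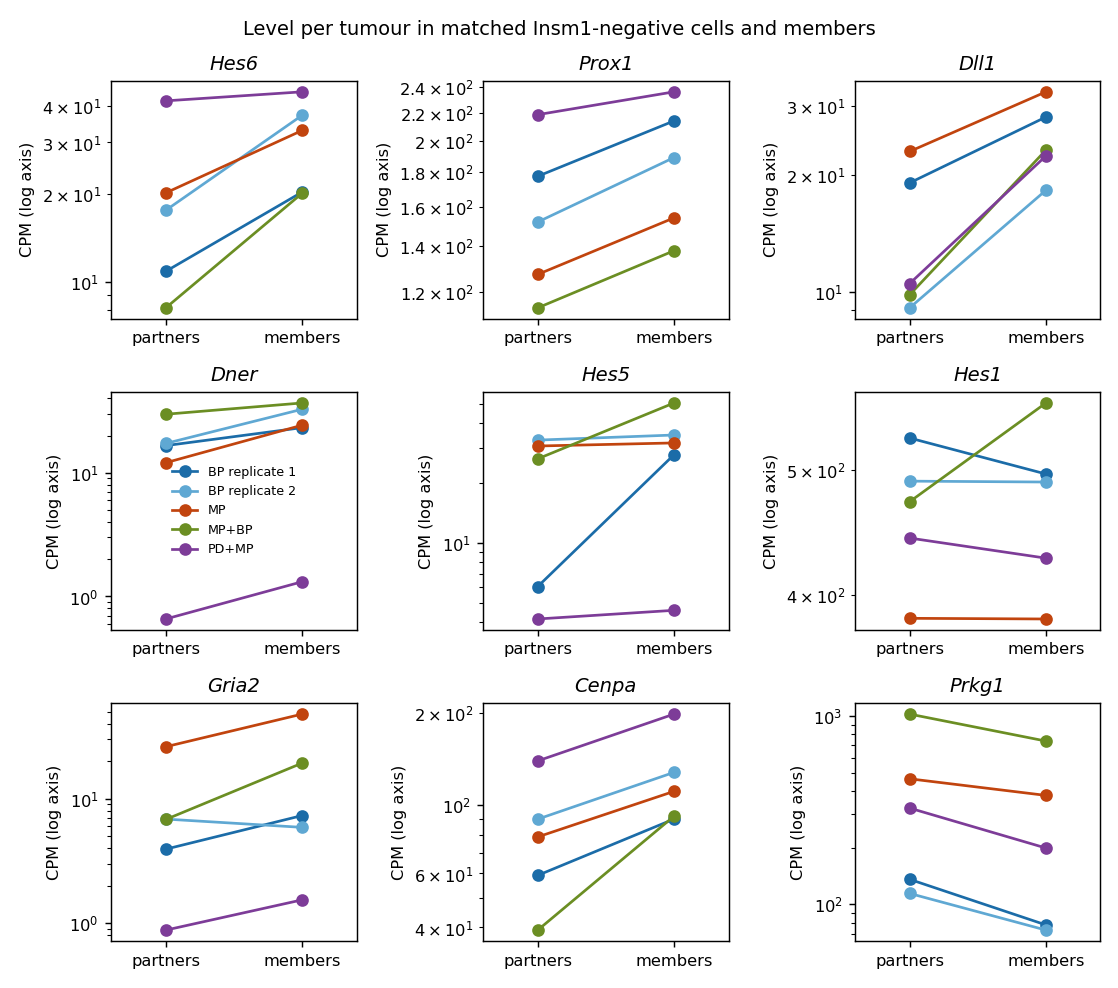
Level (CPM, log axis) of 9 genes in the summed matched *Insm1*-negative cells and in the summed members, with 1 line per tumour. *Hes6*, *Prox1*, *Dll1*, *Dner* and *Cenpa* rise and *Prkg1* falls in 5 of 5 tumours, *Gria2* in members is higher in 4, *Hes5* climbs most in BP replicate 1 and MP+BP, and *Hes1* has no common direction.

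Genes of neuronal structure and synapse moved less as a list. Of 42 genes 37 were tested, 4 were higher (*Snap25*, *Dcx*, *Gria2* and *Rbfox1*) and none lower by edgeR at an adjusted p under 0.05, and the median change was 0.09. At an unadjusted p under 0.05, 9 were higher and 1 was lower. *Dcx*, which encodes the microtubule protein doublecortin of migrating young neurons, stood at 5.16, 21.2, 6.66 and 4.56 CPM in members of BP replicates 1 and 2, MP and MP+BP. Partners stood at 1.78, 4.23, 2.43 and 3.06 CPM there, and PD+MP held no *Dcx* UMI in either arm, which allows up to 0.658 CPM. The gap was widest in BP replicate 2, and the change was 1.48 (SE 0.27, adjusted p = 0.027). It missed the threshold when BP replicate 1, BP replicate 2 or MP was left out (adjusted p from 0.080 to 0.12) and with scored doublets removed (1.30, adjusted p = 0.073). *Gria2*, a glutamate receptor subunit, changed by 0.92 (adjusted p = 0.025), higher in 4 of 5 tumours, with most of its UMIs in MP. *Rbfox1*, a neuronal splicing factor, changed by 0.85 (adjusted p = 0.033), but 1 member alone held 494 UMIs, and an overlapping same-strand gene makes it uncertain.

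*Snap25*, which encodes a protein of synaptic vesicle fusion, changed by 2.86 (adjusted p = 0.025) and was found in 16 members and 3 partners. Structural genes that are standard marks of neurons did not pass. *Tubb3* (neuronal tubulin) changed by 0.28 (adjusted p = 0.59), *Stmn2* (a growth-cone protein) by -0.24 (0.73) and *Elavl4* (a neuronal RNA-binding protein) by 1.22 (0.22). In the neuroendocrine secretory list 0 of 9 tested genes passed by edgeR, and 2 were higher at an unadjusted p under 0.05. *Chgb*, a granule protein, changed by 2.35 (adjusted p = 0.15), *Syp* by 0.21 (0.84) and *Ncam1* by -0.01 (0.98). Among 15 tested genes of neural progenitors none passed, although before adjustment 8 were higher and 1 was lower at p under 0.05. *Sox2*, which *Sox2ot* overlaps on the same strand, changed by 0.29 (edgeR adjusted p = 0.11), *Pax6* by 0.37 (0.10) and *Nes* by -0.25 (0.48).

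Several of the largest changes rested on a small number of cells. *Dcc*, *Gal*, *Kcnb2*, *Gsx1* and *Ptf1a* were chosen for description after their values were seen. *Dcc*, the netrin receptor of axon guidance, stood at 32.0, 171, 51.7, 0.844 and 0 CPM in members and at 0.891, 1.63, 0.811, 1.87 and 0 CPM in partners. It was far higher in 3 tumours and not in MP+BP, and no UMI was found in PD+MP. The fitted change was 5.26 (SE 0.45, edgeR adjusted p = 0.00013; DESeq2 adjusted p = 0.26). Its RNA was found in 45 members, 5 of which held 59.9% of the UMIs, and in MP 3 members held all 450. *Gal*, which encodes the neuropeptide galanin, and *Kcnb2*, which encodes a neuronal potassium channel, changed by 3.52 and 2.94 and were found in 32 and 44 members, with 81.3% and 53.8% of their UMIs in 5 cells.

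These RNAs tended to meet in the same cells, as a description without a test, since the genes were chosen from the same contrast. Of *St18*, *Dcx*, *Snap25*, *Dcc*, *Kcnb2*, *Gal* and *Gsx1*, 3 or more were found in 28 of 954 members and in 1 of 954 partners, while 722 members held none. BP replicate 2, the tumour with the fewest members, held 19 of the 28 cells. They held a median of 18978 UMIs, 3 *Insm1* UMIs and 7 of the 8 gate genes, and EGFP RNA was found in 17 of them. Some genes not used to pick the cells, themselves chosen after their values were seen, were higher there as well, and others were lower. *Myt1l*, a neuronal zinc-finger factor, stood at 69.7 CPM in their sum against 0.519 CPM in all other paired members, *Nhlh2*, a neuronal helix-loop-helix factor, at 17.4 against 0.223 CPM, *Elavl4* at 44.6 against 2.11 CPM and *Stmn3* at 55.5 against 4.53 CPM. Most of the UMIs of *Myt1l*, *Elavl4* and *Stmn3* in the 28 cells (68.8% to 85.4%) came from BP replicate 2. Within that tumour alone, *Myt1l* stood at 94.1 against 0.385 CPM, *Nhlh2* at 12.8 against 1.54 CPM, *Elavl4* at 74.8 against 6.15 CPM and *Stmn3* at 81.2 against 6.15 CPM.

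**Figure D3:**
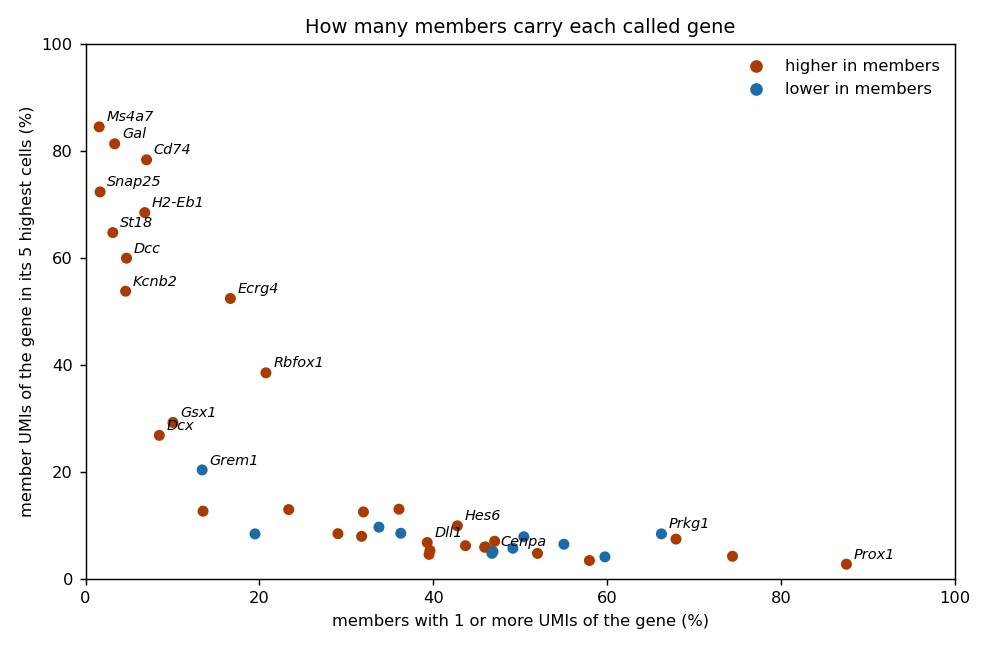
For each gene plotted, all of which passed the test, the percent of 954 members with at least 1 UMI of it and the percent of its member UMIs held by its 5 highest cells. *Dcc*, *Gal*, *St18*, *Snap25* and *Kcnb2* lie toward the upper left, in under 5% of members with 53.8 to 81.3% of UMIs in 5 cells, and *Dll1*, *Hes6* and *Prox1* lie along the bottom.

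Of the Notch pathway, 2 ligand genes rose in members, and no gene of the receptors or the shared machinery passed the test. Among 7 tested ligand genes, *Dll1* and *Dner* were higher. *Dll1*, the ligand that proneural factors induce, stood at 28.1, 18.3, 32.6, 23.1 and 22.4 CPM in members. It stood at 19.1, 9.12, 22.9, 9.85 and 10.5 CPM in partners of BP replicates 1 and 2, MP, MP+BP and PD+MP. The member sum was higher than its own partner sum in 5 of 5 tumours, and the change was 0.79 (SE 0.12, edgeR adjusted p = 0.0075). It was found in 375 members and 281 partners. *Dner*, a neuronal Notch ligand of the Delta type, changed by 0.65 (SE 0.12, adjusted p = 0.034) and was higher in 5 of 5 tumours, at 1.31 to 36.6 CPM in members and 0.658 to 29.7 CPM in partners. Only 6 and 3 UMIs stood behind the PD+MP values, and the adjusted p rose to between 0.079 and 0.19 when BP replicate 1, BP replicate 2 or MP was left out. *Dll3*, a ligand that acts within its own cell, changed by 0.04 (adjusted p = 1.00), *Jag1* by 0.05 (0.86) and *Dll4* by 0.53 (0.43).

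No receptor passed. *Notch1* changed by 0.12 (edgeR adjusted p = 0.57), *Notch2* by -0.07 (0.83) and *Notch3* by -0.16 (0.66). None of 21 tested genes of the Notch machinery passed. The median change was -0.03, and before adjustment 1 gene was lower at p under 0.05. *Rbpj*, the DNA-binding partner of activated Notch, changed by 0.05 (0.91), its coactivator *Maml2* by -0.17 (0.39) and *Mib1*, which activates ligands by ubiquitination, by -0.05 (0.89).

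Of the Notch target genes, none of 6 tested passed by edgeR, and 3 were higher at an unadjusted p under 0.05. *Hes1*, the most widespread, was found in 923 members and 926 partners and changed by 0.02 (SE 0.05, adjusted p = 0.97). *Hes5*, which was named as a marker of these cells, stood at 27.8, 34.9, 31.8, 50.5 and 4.60 CPM in members. Partners stood at 6.06, 32.9, 30.7, 26.5 and 4.16 CPM. Members were well above their partners in BP replicate 1 and MP+BP and at most 0.12 above them on the log2 scale elsewhere. The change of 0.63 (SE 0.20) had an adjusted p of 0.26, and without BP replicate 1 it was 0.36 (0.46), so *Hes5* was not shown to mark members in the comparison as designed. It did pass with 3 partners per member (0.72, edgeR adjusted p = 0.032) and among cells with exactly 1 *Insm1* UMI (0.40, 0.0070). *Hes5* also passed with 1 or more UMIs (0.42, 0.021), with no matching (0.44, 0.011) and without a filter on low counts (0.63, 0.00015). In 17 of 22 alternatives it again did not pass. The other effectors *Hey1* (0.29, adjusted p = 0.11) and *Nrarp* (0.50, 0.15) did not pass.

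**Figure D4:**
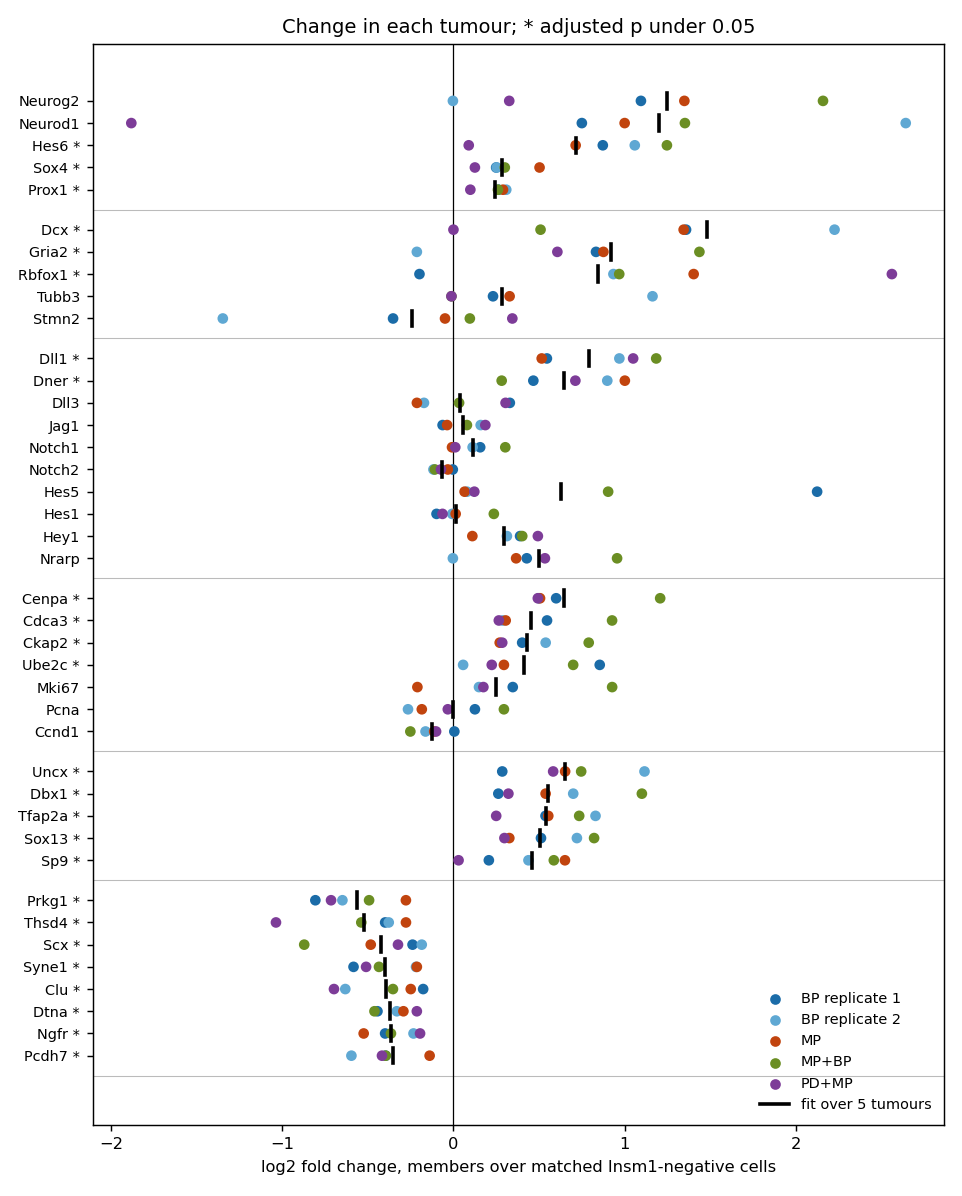
Log2 change of members over matched *Insm1*-negative cells for named genes in each tumour (points) and in the fit over 5 tumours (bars), grouped by role, with * for an edgeR adjusted p under 0.05. Among the Notch genes *Dll1* and *Dner* lie above 0 in 5 of 5 tumours, *Hes1* lies between -0.10 and 0.24, and *Hes5* is spread from 0.07 to 2.12.

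Of the cell cycle genes, 4 genes of the G2 and M phases were higher in members and no gene of S phase passed. Of 52 tested G2/M genes, 4 were higher (*Cenpa*, *Cdca3*, *Ckap2* and *Ube2c*), 35 were higher at an unadjusted p under 0.05, and the median change was 0.24. None of 42 S-phase genes passed by edgeR, 2 were lower at an unadjusted p under 0.05, and the median was -0.04. *Cenpa*, the centromeric histone, stood at 90.2, 128, 111, 92.2 and 198 CPM in members. It stood at 59.1, 90.2, 78.9, 39.2 and 140 CPM in partners. The members were higher in 5 of 5 tumours, most of all in MP+BP, and the change was 0.64 (SE 0.08, adjusted p = 0.0037). *Ube2c*, which targets mitotic proteins for destruction, changed by 0.41, *Cdca3*, an adaptor of the same process, by 0.45, and *Ckap2*, a spindle protein, by 0.43. *Ube2c* (edgeR adjusted p = 0.048) missed the threshold without BP replicate 1, MP, MP+BP or PD+MP (0.069 to 0.12). *Cdca3* missed it without BP replicate 1 (0.079) or MP (0.055), while *Cenpa* kept its call whichever tumour was left out. With scored doublets removed *Cenpa* kept its call (0.52, adjusted p = 0.045), while *Cdca3* (0.37, 0.17), *Ube2c* (0.32, 0.36) and *Ckap2* (0.37) missed the threshold. *Mki67* (0.25, adjusted p = 0.49), *Top2a* (0.21, 0.58) and *Cdk1* (0.23, 0.46) did not pass, nor did the S-phase genes *Pcna* (-0.00, 1.00), *Mcm2* (-0.08, 0.90) and *Tyms* (-0.14, 0.74).

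The size of the cycle difference depended on the tumour. The G2/M list summed to 4830 CPM in members and 3077 CPM in partners of MP+BP, against 4111 and 3958 CPM in BP replicate 2, and the median change of the list ran from 0.05 in BP replicate 2 to 0.77 in MP+BP. When gate cells above the 0.75 quantile of G2/M share of their tumour were removed from both arms, *Cenpa* changed by -0.18 (edgeR adjusted p = 0.92), while *Hes6* changed by 1.05 (0.0042) and *Dll1* by 0.88 (0.054). *Hes6* thus kept its call among the cells lower in G2/M RNA, and *Dll1* missed the threshold. The G2/M share is summed over the G2/M list, *Cenpa* included, so the fall of *Cenpa* was in part built into the cut. Of 22 tested genes of G1 and of cell cycle inhibitors none passed, while at an unadjusted p under 0.05 there were 2 higher and 3 lower. *Ccnd1*, the G1 cyclin whose protein binds Insm1 protein, changed by -0.12 (SE 0.05, adjusted p = 0.38), and the inhibitors *Cdkn1b* and *Cdkn1c* by 0.06 (0.85) and 0.10 (0.78). Of the genes for the partners through which Insm1 protein represses, 0 of 14 tested passed by edgeR and 2 were higher at an unadjusted p under 0.05. *Kdm1a* changed by 0.01 (0.99), *Rcor2* by 0.33 (0.44) and *Hdac1* by -0.02 (0.97).

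Outside these lists, the called genes with the same direction in every tumour and at least 20 UMIs in the higher arm of each included developmental transcription factors. The 10 largest increases among genes that met both conditions included those of *Ecrg4*, *Prok2*, *Lrrn3*, *Uncx*, *Dbx1*, *Tfap2a*, *Sox13*, *Sp9* and *Gdpd1*, with changes from 1.98 to 0.39. *Uncx* and *Dbx1* are homeobox factors of neuronal subtypes, *Sp9* is a zinc-finger factor of inhibitory neuron precursors, *Tfap2a* acts in neural crest and spinal interneurons, and *Sox13* is a SoxD factor. *Dbx1* stood at 37.2, 32.6, 38.5, 33.6 and 50.6 CPM in members and at 30.8, 19.9, 26.7, 15.3 and 40.1 CPM in partners. It was higher in every tumour, most of all in MP+BP, with a change of 0.55 (SE 0.11, edgeR adjusted p = 0.033), and was found in 496 members against 359 partners. *Gsx1* and *Ptf1a*, 2 further factors of spinal and hindbrain interneurons that were chosen after their values were seen, changed by 1.72 (SE 0.30, 0.023) and 0.99 (SE 0.21, 0.048), higher in 5 of 5 tumours.

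*Lrrn3*, a leucine-rich neuronal membrane protein, stood at 24.9, 22.5, 23.0, 38.8 and 19.9 CPM in members and at 13.7, 18.9, 15.4, 20.4 and 11.2 CPM in partners. Its change of 0.71 (SE 0.11, edgeR adjusted p = 0.0079) was present in every tumour. *Prok2*, a secreted prokineticin that guides new neurons, changed by 0.85 (SE 0.15, adjusted p = 0.026). *Ecrg4*, a secreted peptide precursor, had the largest increase of the genes that met both conditions, 1.98 (SE 0.33, adjusted p = 0.017), but it came mainly from 2 tumours. Members and partners held 1594 and 169 CPM in BP replicate 2 and 331 and 75.0 CPM in MP+BP, against 8.72 and 7.66 CPM in BP replicate 1. A single member held 1100 of its UMIs, 5 members held 52.4%, and without BP replicate 2 the adjusted p was 0.057. It did not pass with DESeq2 (1.30, adjusted p = 0.93) or with partners matched on mitochondrial share as well (0.92, 0.079). *Epcam*, the epithelial adhesion molecule, named after its value was seen, changed by 0.38 (SE 0.05, adjusted p = 0.0041) and was higher in 5 of 5 tumours, while the median of the 9 tested epithelial genes was -0.12.

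The 10 largest decreases among genes that met both conditions were those of *Emx2os*, *Prkg1*, *Thsd4*, *Scx*, *Sh3rf3*, *Syne1*, *Clu*, *Dtna*, *Ngfr* and *Pcdh7*, with changes from -0.63 to -0.35. *Prkg1*, the cGMP-dependent kinase of contractile cells, had the smallest adjusted p of these 10. It stood at 77.8, 73.0, 379, 735 and 199 CPM in members. It stood at 136, 114, 464, 1022 and 324 CPM in partners. Members were lower in 5 of 5 tumours although levels differed more between tumours than between arms, and the change was -0.56 (SE 0.07, edgeR adjusted p = 0.0015). *Scx*, the transcription factor of tendon progenitors, changed by -0.43 (SE 0.09, adjusted p = 0.0496), *Thsd4*, a matrix protein, by -0.52, and *Ngfr*, the low-affinity neurotrophin receptor, by -0.36. *Clu*, a secreted chaperone, changed by -0.40 and *Dtna*, a component of the dystrophin complex, by -0.37. *Grem1*, an antagonist of bone morphogenetic proteins, named after its value was seen, had the largest decrease of those named, -1.20 (adjusted p = 0.041). It was lower in 4 of 5 tumours and missed the threshold without BP replicate 1 (-0.72, 0.25), MP (-1.22, 0.11) or MP+BP (-1.17, 0.092). Of 12 tested mesenchymal genes none passed by edgeR, while 1 was higher and 3 were lower before adjustment (p under 0.05).

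Macrophage RNA moved with the members and was not shared evenly among them. The 10-gene macrophage list summed to 19.4 to 148 CPM in members and 16.6 to 40.0 CPM in partners. It was higher in members in 5 of 5 tumours, with the widest gap in PD+MP (148 against 36.2 CPM). The sums differed little in MP (19.4 against 19.0 CPM) and MP+BP (19.6 against 16.6 CPM). None of 9 tested genes passed by edgeR, 7 were higher at an unadjusted p under 0.05, and the median change was 1.00. The antigen-presentation genes *Cd74* (1.60, adjusted p = 0.025) and *H2-Eb1* (1.21, 0.040) and the macrophage gene *Ms4a7* (2.66, 0.034), all named after their values were seen, were among the called genes. Their RNA was found in 67, 65 and 15 members and in 61, 69 and 10 partners, and 5 cells held 78.3%, 68.5% and 84.5% of their UMIs. Scrublet scores cells that resemble 2 cells in 1 droplet. The highest-scoring cells were marked, up to an expected share set by the number of cells of each tumour. That share was 5.35, 8.27, 6.17, 7.45 and 6.76% in BP replicates 1 and 2, MP, MP+BP and PD+MP. Scrublet's automatic threshold, which was not used, called 4, 304, 120, 115 and 79 cells. Marked cells made up 7.05, 10.5, 8.56, 10.0 and 11.8% of paired members in the same order. They made up 7.69, 9.65, 5.45, 7.92 and 9.09% of their partners of like depth. The partners were thus marked more often in BP replicate 1 and less often in the other 4 tumours. With the marked cells removed, *Cd74* changed by -0.33 and *H2-Eb1* by -0.15, and the list's median fell to 0.18.

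Of 45 called genes that were followed across the alternatives, 27 kept their call with the marked cells removed, 15 missed the threshold, *Cd74* and *H2-Eb1* turned direction, and *Ms4a7* was no longer among the genes tested. *Dll1* (0.80, edgeR adjusted p = 0.012) and *Dcc* (4.86, 0.00018) were among those that kept it, and *Hes6*, *Sox4*, *Prox1*, *St18*, *Dcx*, *Cdca3*, *Ckap2*, *Ube2c*, *Uncx*, *Tfap2a*, *Ptf1a*, *Scx*, *Sh3rf3*, *Ngfr* and *Pcdh7* were the 15 that missed it. No gene of the endothelial, pericyte and fibroblast, Schwann cell, lymphocyte and granulocyte, erythroid or muscle lists passed by edgeR, with 1 higher and 4 lower before adjustment (p under 0.05). The summed level was 210 ± 70.5 CPM in members and 210 ± 80.5 CPM in partners for endothelial genes, 187 ± 77.8 and 178 ± 69.9 CPM for pericytes and fibroblasts, and 41.6 ± 22.6 and 41.5 ± 17.8 CPM for Schwann cells and nerve (SD, n = 5). Erythroid genes summed to 233 CPM in partners and 16.6 CPM in members of BP replicate 2. Genes induced by dissociation summed to 7970 ± 740 CPM in members and 7579 ± 465 CPM in partners, with 6 of 15 higher at an unadjusted p under 0.05 and none passing by edgeR.

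Members lay mostly among gate cells that were not members, with more members around them than around partners. Among the 20 nearest neighbours of a member, found within its tumour from 2000 variable genes without the rule genes, 5.09 to 13.6% were members. Around partners of like depth the share was 2.54 to 11.9%, and members made up 1.49 to 4.95% of gate cells. The share was higher around members than around partners in every tumour, by least in BP replicate 1 (8.62 against 8.14%) and by most in MP+BP (11.3 against 6.98%). Neighbours with 25% or more members were found around 8, 3, 49, 31 and 12 members of BP replicates 1 and 2, MP, MP+BP and PD+MP. The same held for 7, 0, 46, 13 and 4 of their partners. No member had more than 50% of members among its neighbours. The neighbour shares are a description, since the same cells define both arms.

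Cells just inside and just outside the cut are given as a description of the rule, without a test. *Dll1* stood at 18.6 ± 6.28 CPM (SD, n = 5 tumours) in cells with exactly 1 *Insm1* UMI, 23.8 ± 5.79 CPM at exactly 2 and 26.8 ± 6.49 CPM at 3 or more, each matched group of partners standing at 14.3 to 15.0 CPM. *Hes6* stood at 23.6 ± 12.2, 26.1 ± 12.4 and 38.3 ± 11.4 CPM. The means of both genes thus stood in the order of the *Insm1* count, with SDs over tumours that overlap. *Hes5* had no such order, at 21.5 ± 12.5, 20.7 ± 15.6 and 44.2 ± 22.3 CPM. *Prkg1* was below its partners in 5 of 5 tumours at each count.

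**Figure D5:**
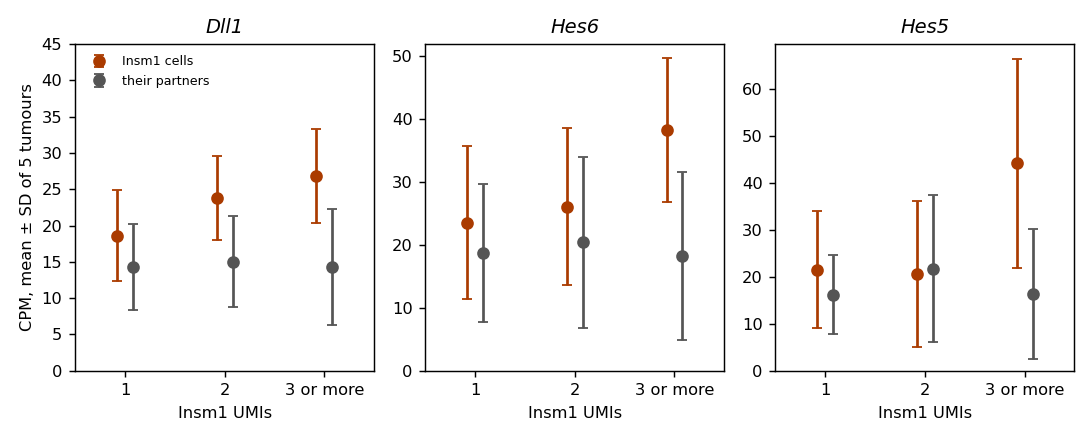
Level (CPM, mean ± SD of 5 tumours) of *Dll1*, *Hes6* and *Hes5* in gate cells with 1, 2 or 3 or more *Insm1* UMIs and in the *Insm1*-negative partners of each. The mean of *Dll1* goes from 18.6 to 26.8 CPM while its partners stay between 14.3 and 15.0 CPM, and *Hes5* at 2 UMIs does not stand above its partners.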

How the data were processed

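Cells of 5 mouse tumours were profiled with 10x 3′ v3.1 chemistry. The authors deposited filtered matrices of raw UMI counts per gene and cell, made with Cell Ranger 7.2.0 on mm10 per the file headers and the submitters' notes. Whether intronic reads were counted was not given in the sources used here.

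Gate cells and members were chosen by the UMI rule given above. Members were paired with *Insm1*-negative gate cells of the same tumour, 1 to 1 and within 10% of total UMIs, and counts were summed per tumour and arm. Sums were tested with edgeR 4.0.16 (quasi-likelihood, TMM scaling, filterByExpr, tumour as block, since both arms come from the same tumours, Benjamini-Hochberg adjustment), with DESeq2 1.42.0 as an alternative. Scripts were tested on simulated data. The edgeR p-values rest on the spread over 5 tumours, with the variance of each gene moderated toward that of other genes. They are therefore not a measure of that gene's own spread alone. Each SE is the size of the change divided by the square root of the edgeR F statistic. Both BP tumours may share an animal. Doublets were scored with Scrublet and kept in the main comparison. The share of cells marked was set by the number of cells of each tumour, and not by Scrublet's automatic threshold.

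The members and gene lists were chosen with earlier results of these data known. Named genes were fixed picks by role, called genes of the lists, and, outside them, the 10 largest changes in each direction among called genes with the same sign in every tumour and at least 20 UMIs in the higher arm of each. Some genes of this rule are not reported here. Genes outside it are said to be chosen after their values were seen. Motifs were searched in RefSeq windows of GRCm38.p6. Comparisons between tumour labels were not made, since 3 labels have 1 tumour.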

Additional observations from a re-analysis of the deposited data

How the results depend on the processing

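The direction of change of *Dll1*, *Hes6* and *Prkg1* was the same under each of the 22 alternatives in which they were fitted, and *Dll1* passed in 18, *Hes6* in 14 and *Prkg1* in 20 of them, with changes from 0.39 to 0.93, from 0.35 to 1.14 and from -0.67 to -0.50. Higher and lower genes numbered 48 and 25 as reported, 23 and 13 by the DESeq2 Wald test, 201 and 147 without a filter on low counts, 77 and 53 with 3 partners per member, 31 and 16 with doublets removed, 19 and 5 with a stricter gate, and 1246 and 1544 with no matching on depth. With 1 or more *Insm1* UMIs they numbered 159 and 92, with exactly 1 UMI 84 and 68, and with 3 or more 2 and 0 (441 and 415 at an unadjusted p under 0.05 by edgeR). Leaving out 1 tumour at a time gave 17 to 44 higher and 8 to 23 lower genes. With no replicate block, so that the pairing of arms within a tumour was not used, 0 and 0 genes passed by edgeR, with 23 and 6 at an unadjusted p under 0.05. 2 alternatives were chosen after seeing the data. Removing gate cells above the 0.75 quantile of G2/M share left 13 and 2 genes. *Cenpa* then stood at -0.18, *Cdca3* at -0.16 and *Ube2c* at -0.24, but these genes belong to the list that defines the share. Removing cells with 3 or more macrophage-list UMIs left 36 and 13 genes. The planned cut on 5 G2/M UMIs was not run, since it left under 20 pairs in every tumour.

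*Cd74* changed by -0.28 and *H2-Eb1* by -0.32 with 1 or more *Insm1* UMIs, by -1.11 and -1.19 with exactly 1, by -0.054 and -0.16 with no matching, by -0.33 and -0.15 with doublets removed, and by -0.53 and -0.10 with macrophage-list cells removed. *Ms4a7* changed by -0.61 with exactly 1 UMI. The macrophage list's median was -0.056, -0.61 and 1.99 with 1 or more, exactly 1 and 3 or more UMIs, -0.21 with no matching, 0.18 with doublets removed, 0.15 without the cells above the G2/M quantile and 0.0045 without macrophage-list cells. The median of the neuronal transcription factor list was 0.14 with exactly 1 UMI, that of Notch ligands 0.42 with 3 or more, and that of Notch targets 0.38 with 3 or more and 0.29 with at least 10 counts in every sum. Beyond these constructions, the cause was not tested.

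Shares of gate cells in BP replicates 1 and 2, MP, MP+BP and PD+MP were 12.9, 8.08, 14.8, 12.7 and 11.8% at 1 or more UMIs, 1.12, 0.572, 1.71, 1.19 and 0.837% at 3 or more, and 0.526, 0.442, 0.700, 1.07 and 0.626% after thinning to 5000 UMIs. With stricter cell quality the MP share was 5.69%, the MP+BP share 4.37% and the PD+MP share 3.62%. Depth limits the membership itself, because a shallow cell with *Insm1* RNA can hold fewer than 2 UMIs.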
